A study of Canis lupus familiaris with 31 samples.

Results

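Dietary fat was known for 26 of the 31 Miniature Schnauzers, and these dogs were divided by the fat content of the food that they ate at home. The 12 dogs whose diet held 4.0 g of fat per 100 kcal or more made up the higher-fat side, and the 14 dogs whose diet held less made up the lower-fat side. The 5 dogs without a value were left out. The higher-fat side held 6 cases with HTG (raised fasting blood triglycerides) and 6 controls with normal fasting triglycerides, and the lower-fat side held 4 cases and 10 controls. Of the higher-fat dogs 8 were male and 4 female, and of the lower-fat dogs 7 were male and 7 female. All were older pets fed by their owners on many commercial foods and asked to fast before blood was drawn, with the males castrated and nearly all females spayed. Nobody assigned the diets, so the fat content came together with all else that set these foods and households apart. The division also fell between close neighbours, since 4 lower-fat dogs ate 3.9 g per 100 kcal and 3 higher-fat dogs ate 4.0 g.

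Fat in a meal reaches blood cells as triglyceride-rich lipoproteins and free fatty acids. Fatty acids bind the PPAR family of nuclear receptors, which switch on genes for burning and storing fat such as PDK4, CPT1A, ANGPTL4 and PLIN2. Cells sense cholesterol through the SREBP factors, which raise the genes of sterol synthesis when sterols are scarce, and through the LXR receptors, which raise the exporters ABCA1 and ABCG1 when sterols abound. Whole blood mixes neutrophils, monocytes, lymphocytes, platelets and young red cells, and a lower level of a gene in such a sample cannot tell fewer cells of a type from less RNA per cell.

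Each dog gave 1 library, with 14524659 to 41533599 read pairs counted on genes. Totals were lower on the higher-fat side by 0.0926 on the log10 scale, which missed the threshold (two-sided permutation test within groups, P = 0.0522). The dog labelled case 01 and the dog labelled control 03, both on the lower-fat side, stood apart by high levels of red cell genes, and the main values that they move are given with and without them below. Small non-coding RNA genes divided the libraries into a set of 10 with high levels and a set of 16 with low levels, and 4 of the 6 higher-fat cases but 1 of the 4 lower-fat cases fell in the high set, whereas 1 of the 6 higher-fat controls and 4 of the 10 lower-fat controls did. The authors prepared 10 of the 31 libraries earlier in a pilot, and the labels do not say which. Among the cases, 5 of 6 higher-fat dogs but 1 of 4 lower-fat dogs were male (two-sided Fisher's exact test, P = 0.19). Expression is given as CPM, the read pairs of a gene relative to the library's TMM-scaled total, and each log2 fold change is the higher-fat minus the lower-fat side, fitted with the case or control group as a covariate.

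No gene differed between the sides past the threshold. Of 15080 genes tested with edgeR's quasi-likelihood test, 0 (0%) had a Benjamini-Hochberg adjusted P of at most 0.05, and the smallest adjusted P was 0.999. At an unadjusted P under 0.05 there were 513 genes (3.4%), 227 with the higher level on the higher-fat side (1.51%) and 286 with the lower level (1.9%). DESeq2 and limma-voom also called 0 genes, with 611 and 472 genes at an unadjusted P under 0.05. For the table as a whole the fold change was centred close to zero (median -0.018 on the log2 scale), with a median standard error of 0.158. The data were precise enough to bound most differences: the 95% interval lay within a 2-fold difference in either direction for 82% of all genes and for 95.5% of the 7836 genes with a mean of at least 10 CPM. Among those better expressed genes it lay within a 1.5-fold difference for 87.1%. Of the genes under 1 CPM, 31.5% had an interval within a 2-fold difference, so that for most faint genes a 2-fold difference was not excluded.

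**Figure D1:**
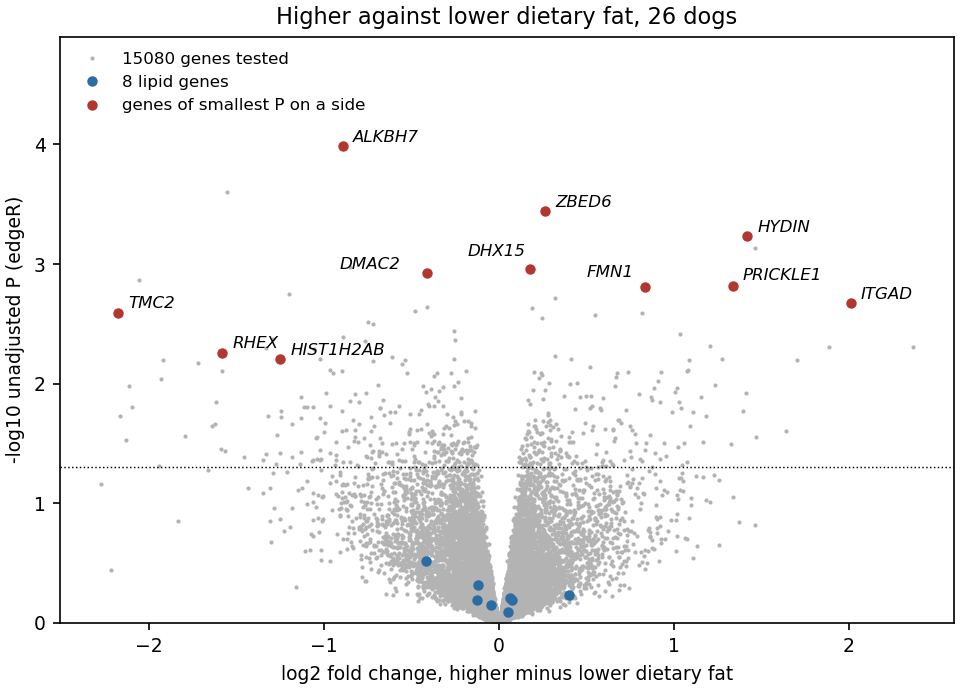
Each of the 15080 genes is a grey point at its log2 fold change, higher minus lower dietary fat, against the -log10 of its unadjusted P, with the dotted line at P = 0.05 and labelled red points for genes of smallest P on a side. The 8 lipid genes in blue lie low in the plot, all below the line, and ALKBH7 is the highest point although its adjusted P was 0.999.

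The genes that fatty acids and sterols are best known to drive showed no difference that could be told from zero. Of those chosen whatever their values, ANGPTL4 and CD36 were too faint to test, with 35 and 41 counts in all 26 dogs together. ANGPTL4 encodes an inhibitor of lipoprotein lipase and CD36 a fatty acid receptor. The 8 others described here had log2 fold changes between -0.42 and 0.40, and the smallest unadjusted P among them was 0.302. PDK4, the kinase that turns cells from glucose to fat as fuel, ranged from 0.335 to 2.67 CPM on the higher-fat side (median 1.01) and from 0 to 5.13 CPM on the lower-fat side (median 0.393). The lower-fat dogs thus held both the lowest and the highest levels, and the log2 fold change of 0.40 had a 95% interval from -1.10 to 1.90. CPT1A, the gate enzyme for fatty acid entry into mitochondria, stood at 93.6 ± 24.1 CPM (SD, n = 12) on the higher-fat side and 90.3 ± 15.7 CPM (SD, n = 14) on the lower-fat side, a log2 fold change of 0.06 with an interval from -0.191 to 0.315.

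PLIN2, which coats lipid droplets, had a log2 fold change of -0.12 (SE 0.171), and ACSL1, which activates long-chain fatty acids, had one of -0.42 (SE 0.398). Without case 01 and control 03 the ACSL1 value turned to 0.32. SCD and FADS2, which place double bonds in fatty acids, had values of -0.045 (SE 0.12) and -0.12 (SE 0.263), and the FADS2 value turned to 0.17 without case 01 and control 03. The cholesterol exporters ABCA1 and ABCG1 had values of 0.054 (SE 0.22) and 0.076 (SE 0.166). For CPT1A, PLIN2, SCD, FADS2, ABCA1 and ABCG1 the intervals left out a 2-fold difference either way, and for PDK4 and ACSL1 they did not.

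**Figure D2:**
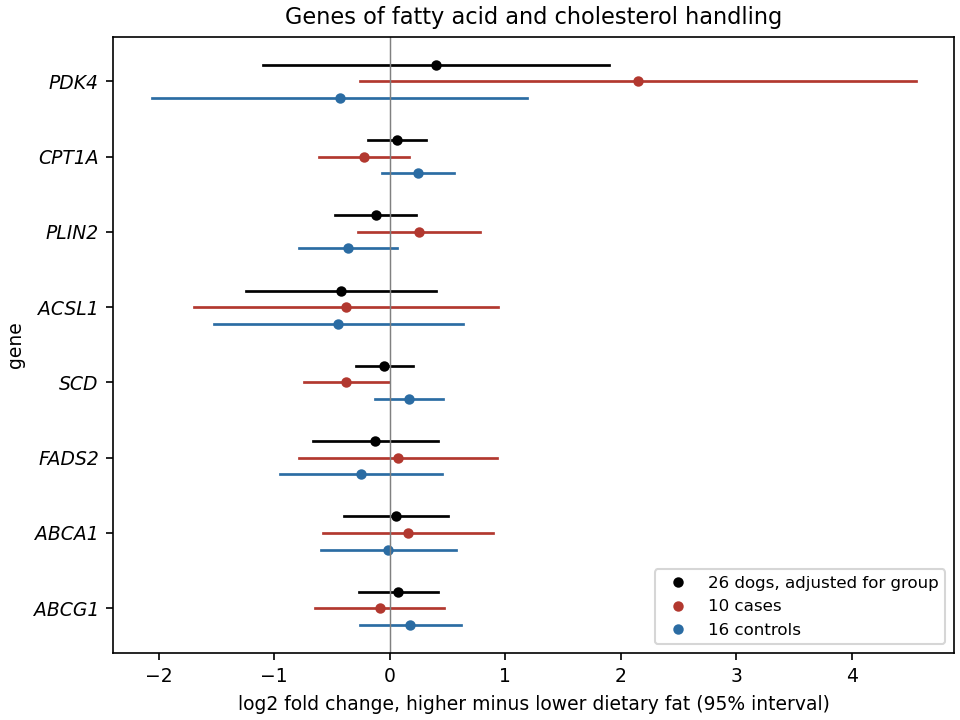
Points are log2 fold changes, higher minus lower dietary fat, and lines are 95% intervals, for all 26 dogs adjusted for group (black), the 10 cases (red) and the 16 controls (blue). All 8 black lines cross zero, and PDK4 has the widest.

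The whole lists around these genes also had medians near zero. Fatty acid oxidation had 19 members tested, of which 9 lay above zero and 10 below, with a median log2 fold change of -0.011, and 0 reached an unadjusted P under 0.05. Among the PPAR receptors and their target genes the median over 13 members was -0.080, and 1 member, UCP2, had an unadjusted P under 0.05. UCP2 encodes a mitochondrial carrier that young red cells also hold in plenty, and its log2 fold change of -0.96 rested on 2 dogs. It stood at 6030 CPM in case 01 and 3820 CPM in control 03, while the other 24 dogs ranged up to 1390 CPM, and without these 2 dogs the value was 0.19. Fatty acid uptake and sensing (15 members, median -0.154), triglyceride storage and lipolysis (18 members, median -0.069), fatty acid synthesis and desaturation (17 members, median -0.045) and cholesterol synthesis and uptake (21 members, median -0.041) each had 0 members at an unadjusted P under 0.05. In the list of LXR and cholesterol efflux, 15 members with a median of -0.030, NPC2 had a log2 fold change of -0.33 (unadjusted P = 0.0347) and ABCA7 one of 0.34 (unadjusted P = 0.0393). NPC2 carries cholesterol out of lysosomes and ABCA7 is a lipid transporter related to ABCA1. Neither passed the adjusted test. Over all genes 3.4% had an unadjusted P under 0.05, 1.51% with the higher and 1.9% with the lower level on the higher-fat side.

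Lists for stress and immune signalling were read in the same way. The toll-like receptor and NF-kB response had a median of -0.057 over 23 members with 0 at an unadjusted P under 0.05. The unfolded protein response had a median of -0.057 over 16 members, with 1, the stress-induced factor ATF3, at an unadjusted P of 0.0456 and a log2 fold change of -0.46, which was -0.22 without case 01 (unadjusted P = 0.253). The type I interferon response had a median of 0.10 over 20 members, 0 of them at an unadjusted P under 0.05. In the oxidative stress response 15 of 16 members lay below zero, against 8295 of all 15080 genes, with a median of -0.156 and 0 members at an unadjusted P under 0.05. Without case 01 and control 03 the median was -0.101 with 11 of 16 below zero, and with dietary fat as a number the median slope was -0.033 log2 units per g per 100 kcal with 14 of 16 below zero. Its member with the smallest P was NQO1, a quinone reductase, at -0.43 (SE 0.224), and the largest difference was that of the peroxidase gene GPX1 at -0.90 (SE 0.545). GPX1 is also abundant in red cells, and its value turned to 0.37 without case 01 and control 03.

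The genes with the smallest P on each side are given as the extremes of a comparison in which none passed. ALKBH7, which encodes a mitochondrial protein of the AlkB dioxygenase family, had the smallest P of all genes. Its level was 5.48, 5.49, 5.70 and 21.4 CPM in the 4 lower-fat cases and 2.74 to 4.57 CPM (median 3.45) in the 6 higher-fat cases. In the controls it was 3.5 to 5.4 CPM (median 3.84) on the lower-fat side and 2.37 to 3.73 CPM (median 2.71) on the higher-fat side. The sides did not overlap in the cases and overlapped slightly in the controls, and 8 of the 12 higher-fat dogs lay below all 14 lower-fat dogs. The log2 fold change was -0.89 (SE 0.196, unadjusted P = 0.000103), and it was -0.58 (unadjusted P = 2.65e-05, adjusted P = 0.406, edgeR) without case 01, which held the 21.4 CPM. The fit that took dietary fat as a number in place of the sides gave a slope of -0.30 log2 units per g per 100 kcal (unadjusted P = 0.0357).

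DMAC2, an assembly factor of mitochondrial complex I, separated the sides more fully with 1 exception. It stood at 4.72 to 6.55 CPM (median 5.53) in the 14 lower-fat dogs. In 11 of the 12 higher-fat dogs it stood at 2.82 to 4.67 CPM, below every lower-fat dog, while the dog labelled control 14 had the highest level of all at 7.23 CPM. The log2 fold change was -0.41 (SE 0.113, unadjusted P = 0.00119, adjusted P = 0.999, edgeR), and it was -0.52 without control 14 (unadjusted P = 1.06e-05, adjusted P = 0.159, edgeR). On the side with high small RNA levels alone it was -0.15, and on the low side alone -0.41.

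DHX15, an RNA helicase of the splicing machinery, showed the opposite order with a small difference. It ranged from 70.8 to 84.7 CPM (median 75.4) on the higher-fat side and from 59.7 to 73.6 CPM (median 67.1) on the lower-fat side. All 12 higher-fat dogs lay above the median of the lower-fat dogs, and 9 lay above every one of them. The log2 fold change was 0.18 (SE 0.0479, unadjusted P = 0.0011). ZBED6, a transcription factor gene that lies within an intron of ZC3H11A so that its reads cannot be told from unspliced RNA of that gene, was at 41.0 to 57.4 CPM (median 49.0) on the higher-fat side and 32.5 to 51.0 CPM (median 41.3) on the lower-fat side. Its log2 fold change was 0.26 (SE 0.0641, unadjusted P = 0.000359).

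HYDIN and ITGAD had larger differences with a wide spread among the higher-fat dogs. HYDIN encodes a protein of motile cilia, and its level was 15.0 CPM in case 05 and 18.3 CPM in control 08, 2 higher-fat dogs, against 1.36 to 2.51 CPM in all 14 lower-fat dogs. Of the 12 higher-fat dogs, 8 lay above every lower-fat dog. The log2 fold change was 1.42 (SE 0.364), 0.84 without control 08 and 0.85 with limma-voom. With dietary fat as a number its slope of 0.74 log2 units per g per 100 kcal had the smallest P of all genes in that fit (unadjusted P = 1.02e-05, adjusted P = 0.155, edgeR). Control 08, which held the highest HYDIN level, also ate the most fat of all dogs, at 6.5 g per 100 kcal. The slope without that dog was not computed. ITGAD, the alpha-D subunit of a leukocyte integrin, ranged from 0.0612 to 11.8 CPM (median 2.80) on the higher-fat side and from 0.0773 to 2.57 CPM (median 0.796) on the lower-fat side. The higher-fat side thus held both the lowest level and the 6 highest, and the log2 fold change of 2.01 had an interval from 0.79 to 3.23. Among the 10 dogs with high small RNA levels the ITGAD value was 0.092, and among the 16 others it was 2.66.

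The other genes with the smallest P and the higher level on the higher-fat side were PRICKLE1 (log2 fold change 1.34), FMN1 (0.83), ZNF346 (0.32), HMGXB4 (0.19), FLT1 (0.82) and DUSP10 (0.55). PRICKLE1 acts in planar cell polarity, FMN1 is an actin nucleator, FLT1 is a VEGF receptor and DUSP10 is a phosphatase of the stress kinases. Those with the lower level were TMEM43 (-0.41), CNNM4 (-0.48), TMC2 (-2.18), MFSD5 (-0.26), CITED2 (-0.25), RHEX (-1.58), HIST1H2AB (-1.25) and ZNF485 (-1.02). CITED2 is a transcription co-regulator, RHEX acts in red cell formation, and HIST1H2AB is a histone gene. TMC2 and RHEX were faint, with at most 46 and 35 counts in any dog. ZNF485 rested largely on case 01, which held 51.3 CPM against 8.48 CPM or less in every other dog, and its value was -0.26 without that dog. HIST1H2AB was likewise highest in case 01 and control 03, and its value was -0.48 without both. The CNNM4 value was -0.30 without these 2 dogs. Many histone transcripts also have near-identical copies among which counts can be split.

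**Figure D3:**
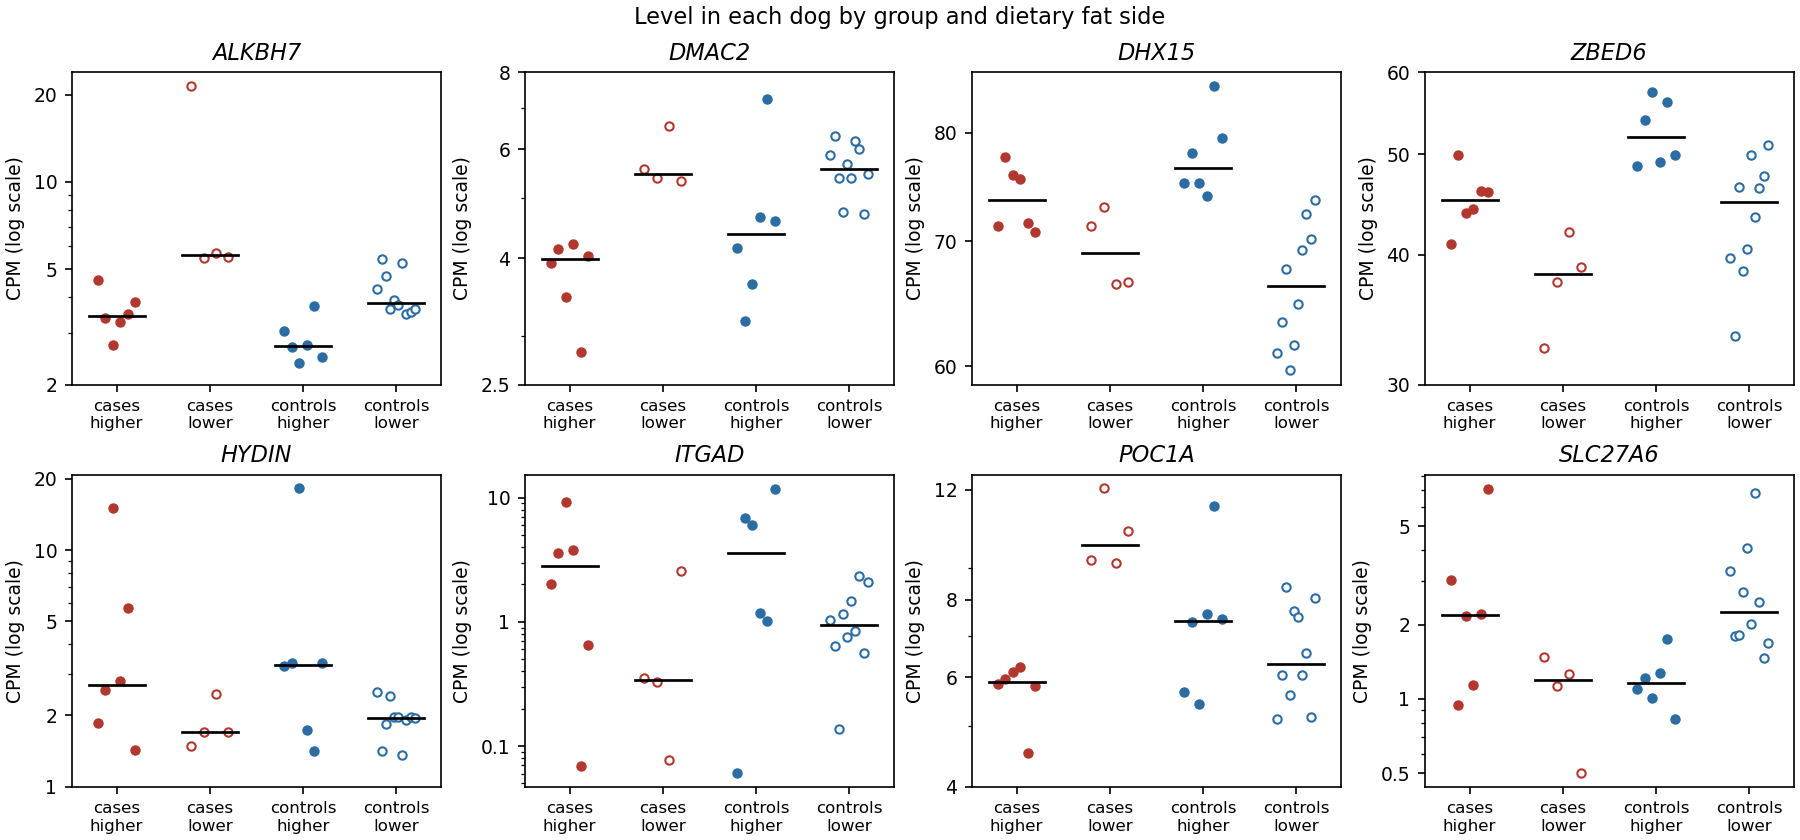
Each point is 1 dog at its CPM on a log axis, filled for the higher-fat and open for the lower-fat side, red for cases and blue for controls, and bars are medians. ALKBH7 and POC1A part the 6 higher-fat from the 4 lower-fat cases without overlap, DMAC2 parts all dogs but control 14, and HYDIN shows 2 dogs far above the rest.

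Markers of blood cell types were compared next, since whole blood holds all of them. Cytotoxic lymphocyte genes, which mark natural killer cells and killer T cells, had the highest median of the 8 marker lists. Of 12 tested, 11 had a log2 fold change above zero, with a median of 0.64 against -0.018 over all genes, and 5 had an unadjusted P under 0.05 with the higher level on the higher-fat side (background 1.51%). These were TBX21, GZMB and KLRD1, the 3 with the smallest P, and PRF1 and EOMES, which the naming rule leaves out and which were added after their values were seen. TBX21, the T-bet factor of these cells, ranged from 17.2 to 115 CPM (median 52.0) on the higher-fat side and from 4.42 to 55.9 CPM (median 24.4) on the lower-fat side. The sides overlapped widely, although 5 of 12 higher-fat dogs lay above every lower-fat dog, and the log2 fold change was 0.91 (SE 0.327, unadjusted P = 0.00952, adjusted P = 0.999, edgeR). GZMB, the killing protease granzyme B, had a value of 0.78 (SE 0.344), the receptor KLRD1 0.71 (SE 0.337), the pore protein PRF1 0.65 and the factor EOMES 0.64. Without control 18 the values of GZMB and PRF1 were 0.415 and 0.408.

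The values of these genes were also read within each group. Within controls the median log2 fold change of the list was 0.96 with 6 of 12 members at an unadjusted P under 0.05 and the higher level on the higher-fat side (background 1.65%), and within cases it was 0.19 with 0 such members. Without control 18 the control median was 0.497 with 0 members at that P and the higher level and 1 with the lower level, and without the dogs next to the threshold it was 0.855 with 0. The median in cases turned to -0.141 without case 05 and to -0.129 with sex as a covariate, and it was 0.0044 without case 11. The difference between cases and controls reached an unadjusted P under 0.05 for 0 of the 12. Summed as a marker score, the average of the list's log2 CPM once every gene was set to a mean of zero across dogs, the 6 higher-fat controls ranged from -0.42 to 1.82 (median 0.15) and the 10 lower-fat controls from -1.79 to 0.55 (median -0.20). Controls 18 and 07 were highest, and the lower-fat controls 09, 03 and 06 were lowest. Without control 18 the median log2 fold change over the other dogs of both groups was 0.41. The count of 5 members was 1 without control 18, without case 05 or without case 11, and 8 without control 17, and it was 2 without any 1 of several other dogs. With sex as a covariate the median was 0.59 and 1 of 12 members, TBX21, had an unadjusted P under 0.05. Among the 10 dogs with high small RNA levels it was 0.19 with 0 members, and with the dog number as a block it was 0.33 with 0. In the block fit a dog whose number no dog of the other group shares adds nothing to the estimate. Control 18 and case 05 are among these dogs.

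Red cell genes gave a list that rested on single dogs. All 14 erythroid markers tested had a log2 fold change below zero, against 8295 of all 15080 genes, with a median of -0.50, but 1 had an unadjusted P under 0.05. That was KLF1, the master factor of red cell genes, at -1.25 (unadjusted P = 0.0379). It stood at 325 CPM in case 01 and 251 CPM in control 03, and in the other dogs at 6.47 to 89.6 CPM, so that the higher-fat and the lower-fat medians were 22.1 and 24.3 CPM. Without these 2 dogs the median of the list was 0.33, with 13 of 14 members above zero, and KLF1 stood at 0.086. SLC4A1, a red cell membrane protein, had a value of -0.88 with all dogs and 0.063 without these 2.

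The other cell types had medians nearer to zero. All 11 neutrophil markers tested lay below zero, against 8295 of all 15080 genes, with a median of -0.287 and 0 members at an unadjusted P under 0.05. LCN2 (lipocalin 2) had the smallest P at -0.93 (SE 0.486). Without control 09, the lower-fat dog with the highest neutrophil score, the median was -0.081, and it was -0.55 with 3 members at an unadjusted P under 0.05 without control 12 and -0.663 with 2 without the dogs next to the threshold. Over all genes 646 and 704 had such a P in the fits without control 12 and without the dogs next to the threshold, against 513 with all dogs. Monocyte markers had a median of -0.147 over 9 members, and B cell markers one of 0.075 over 10, both with 0 members at an unadjusted P under 0.05. T cell markers had a median of 0.080 over 11 members, with the co-stimulator CD28 at 0.30 (unadjusted P = 0.0404). Eosinophil and basophil markers had a median of 0.079 over 9 members, of which 5 lay above zero and 4 below. MS4A2, the beta chain of the IgE receptor of basophils and mast cells, was the 1 member with an unadjusted P under 0.05 (background 3.4%). It ran against the median of its list. MS4A2 ranged from 3.23 to 14.3 CPM (median 8.27) on the higher-fat side and from 6.28 to 27.9 CPM (median 13.9) on the lower-fat side, and 11 of 12 higher-fat dogs lay below the lower-fat median. Its log2 fold change was -0.72 (SE 0.243, unadjusted P = 0.00648, adjusted P = 0.999, edgeR).

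**Figure D4:**
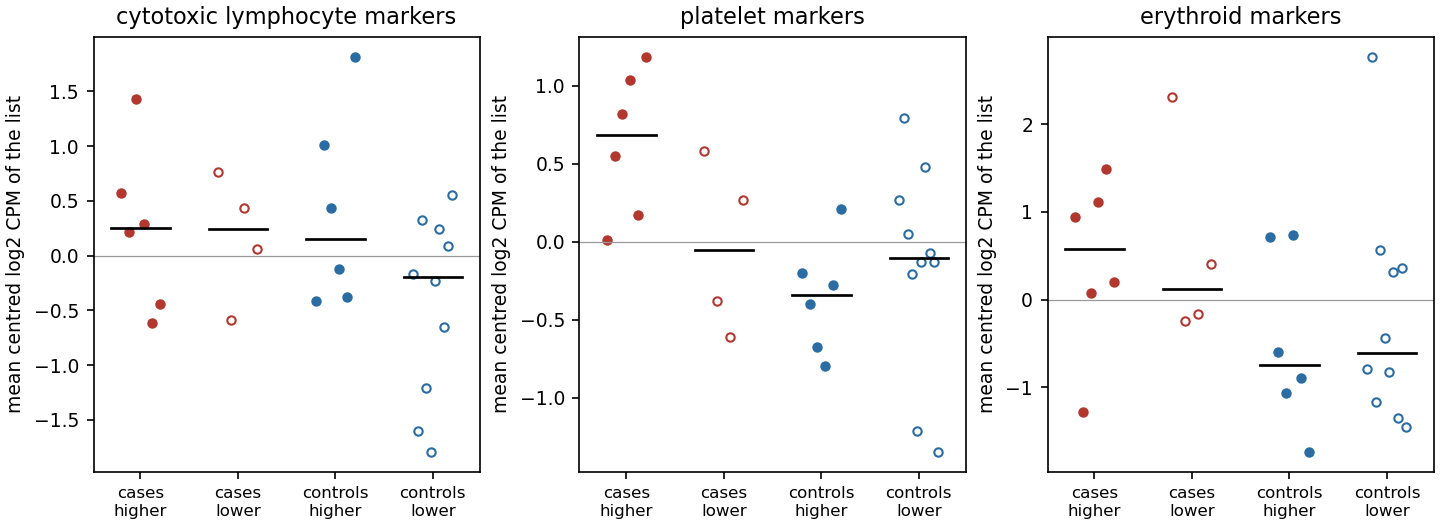
Each point is 1 dog at its marker score, the mean centred log2 CPM of the list, filled for the higher-fat and open for the lower-fat side, with bars at the medians. Case 01 and control 03 stand at 2.31 and 2.77 in the erythroid panel, and the 6 higher-fat cases lie at 0.010 to 1.19 in the platelet panel.

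Within the 10 cases the comparison asked whether fat went with expression in dogs that already had raised triglycerides. Again 0 genes passed, with 872 (5.78%) at an unadjusted P under 0.05, and the smallest adjusted P was 0.59. DESeq2 called 1 gene, ALKBH7 (adjusted P = 0.0499), and limma-voom 0. ALKBH7 had a log2 fold change of -1.42 (SE 0.286, unadjusted P = 3.91e-05), and -0.66 without case 01. POC1A, a protein of centrioles, stood at 9.15, 9.26, 10.3 and 12.1 CPM in the 4 lower-fat cases and at 4.54 to 6.23 CPM (median 5.90) in the 6 higher-fat cases. The sides did not overlap, and the log2 fold change was -0.83 (SE 0.18, unadjusted P = 9.87e-05, adjusted P = 0.641, edgeR). With sex as a covariate it was -1.04, and POC1A then passed with an adjusted P of 0.0128 from edgeR. POLR3B (-1.21), a subunit of RNA polymerase III, and CITED2 (-0.48) were also among the genes with the smallest P. POLR3B stood at 100 CPM in case 01, at 26.5 to 26.8 CPM in the other 3 lower-fat cases and at 15.5 to 22.4 CPM in the higher-fat cases, and its value was -0.47 without case 01. The CPM of the sides did not overlap for ALKBH7, POC1A, POLR3B and CITED2, which was also so for 187 of all 15080 genes (1.24%). One lower-fat case, case 01, carried the most raised triglycerides of the 13, and the other 3 lower-fat cases, numbered 11 to 13, ranked below all 6 higher-fat cases, so that triglycerides and fat cannot be told apart among the cases other than case 01. The median body condition score was also higher in the higher-fat than in the lower-fat cases, and in the controls this order was turned. Body condition was a covariate in the comparison of the sides but not within groups.

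Most genes of fat burning had values below zero in the cases, and none passed the adjusted test. Of the 19 fatty acid oxidation genes 13 lay below zero within cases, with a median of -0.109, and 4 had an unadjusted P under 0.05, all with the lower level on the higher-fat side (background 3.23%). They were ACADM (-0.44), ACADS (-0.39), HADHA (-0.39) and HADH (-0.33), of which ACADS and HADHA were named after their values were seen. The HADHA value was -0.097 without case 01, and with the small RNA set as a covariate ACADM (-0.36) was the 1 of these 4 with an unadjusted P under 0.05. ACADM and ACADS encode medium-chain and short-chain acyl-CoA dehydrogenases, and HADHA and HADH encode enzymes of the later steps of beta-oxidation. In cholesterol synthesis and uptake 18 of 21 members lay below zero within cases, with a median of -0.193 against -0.00053 over all genes. SQLE (-0.63, unadjusted P = 0.0446, edgeR) and INSIG1 (-0.44, unadjusted P = 0.0284, edgeR), both named after their values were seen, were the 2 with an unadjusted P under 0.05 (background 3.23%). SQLE makes squalene epoxide and INSIG1 holds back SREBP. SCD had a value of -0.38 (unadjusted P = 0.0457). In the list of LXR and cholesterol efflux, NPC2 stood at -0.55 (unadjusted P = 0.0281), and at -0.41 without case 01 (unadjusted P = 0.119). None of these passed the adjusted test. In cases the median of the cholesterol list was -0.067 with 0 members at an unadjusted P under 0.05 with the small RNA set as a covariate, and -0.24 with 6, all with the lower level, with sex as a covariate. The count over all 15080 genes moved as well, from 872 to 596 with the small RNA set and to 1183 with sex. With 1 dog left out it ran from -0.119 (without case 07) to -0.30 (without case 13). Without case 01 or without case 06, 0 members had an unadjusted P under 0.05, against 5 without case 02 or without case 13. Over all genes these fits gave 767 and 693 against 1143 and 1065.

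Within the 16 controls 0 genes passed, with 739 (4.9%) at an unadjusted P under 0.05 and a smallest adjusted P of 0.891. DESeq2 and limma-voom called 0. DHX15 had the smallest P, at 74.0 to 84.7 CPM in the 6 higher-fat controls and 59.7 to 73.6 CPM in the 10 lower-fat controls. It was the 1 gene of 15080 (0.00663%) whose sides did not overlap in the controls, although the gap was narrow, and its log2 fold change was 0.23 (unadjusted P = 0.000762, adjusted P = 0.891, edgeR). MAP1LC3A (-0.75), an LC3 protein of autophagy, CA4 (-1.63), a membrane carbonic anhydrase, LENG9 (-0.80) and PRICKLE1 (1.63) followed. CA4 ranged from 6.73 to 10.9 CPM (median 9.06) in the higher-fat controls and from 5.43 to 90.2 CPM (median 15.9) in the lower-fat controls. The fatty acid oxidation list lay at a median of 0.047 here and cholesterol synthesis and uptake at 0.104, with 16 of 21 members above zero and HSD17B7, a sterol reductase, at 0.56 (unadjusted P = 0.0101). The median of the cholesterol list was 0.0137 with 12 of 21 above zero without control 12, 0.0558 with the small RNA set as a covariate and 0.0356 without the dogs next to the threshold. ACSL4, which activates polyunsaturated fatty acids, had a value of -0.67 (unadjusted P = 0.00672).

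Cases and controls were then compared in how they differed with fat, by an interaction term. For this 0 genes passed (smallest adjusted P 0.615, limma-voom 0, DESeq2 1 gene without a symbol), and 1202 (7.97%) had an unadjusted P under 0.05. That number was 688 with the small RNA set as a covariate and 641 without the 7 dogs next to the threshold. POC1A had the smallest P, at -0.83 in cases and 0.17 in controls (unadjusted P of the difference = 0.000203), and it passed with sex as a covariate (adjusted P = 0.0331, edgeR). SLC27A6, a fatty acid transport protein, stood at 0.503, 1.13, 1.26 and 1.48 CPM in the 4 lower-fat cases and at 0.946 to 7.11 CPM (median 2.18) in the 6 higher-fat cases. In the controls the order was turned, with 1.47 to 6.82 CPM (median 2.24) on the lower-fat side and 0.831 to 1.75 CPM (median 1.16) on the higher-fat side. Its log2 fold change was 1.32 in cases and -1.24 in controls, a difference of 2.56 (SE 0.635, unadjusted P = 0.000427, adjusted P = 0.615, edgeR). C15orf48, a small mitochondrial protein, showed the same order (1.07 in cases and -1.09 in controls), as did DENND2C, a regulator of Rab proteins (1.04 and -0.35).

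Across genes the 2 groups of dogs, which share no animal, did not repeat each other. The sign of the log2 fold change was shared by 43.7% of the 15080 genes, and Pearson's r across genes was -0.144, as a description, since genes of one library are not independent. Platelet genes went furthest apart. All 12 platelet markers lay above zero within cases, with a median of 0.64, and 11 of 12 lay below zero within controls, with a median of -0.328, and 7 of 12 had an unadjusted P under 0.05 for the difference (background 7.97%) but 0 of 12 within either group. The count within cases was 4 of 12 without case 01 or without case 02, where 767 and 1143 of all genes had such a P. Within controls it was 3 of 12 without control 18, where 537 of all genes did, and the control median was -0.218 without control 03. The count for the difference was not computed with dogs left out. Examples, named after their values were seen, were the platelet chemokine PPBP (0.77 in cases and -0.41 in controls) and the von Willebrand receptor chain GP1BA (0.79 and -0.51). The platelet marker score was 0.58, -0.38, -0.61 and 0.27 in lower-fat cases 01, 11, 12 and 13 and 0.010 to 1.19 (median 0.69) in the higher-fat cases. In the controls it was -0.79 to 0.21 (median -0.34) on the higher-fat side and -1.35 to 0.79 (median -0.10) on the lower-fat side, so that the sides overlapped in both groups. With the small RNA set as a covariate the medians were 0.37 in cases and -0.112 in controls, and without the dogs next to the threshold the control median was -0.035. With sex as a covariate the medians were 0.55 in cases, with 12 of 12 members above zero, and -0.321 in controls, with 11 of 12 below. The parts of triglycerides and of body condition in this pattern were not tested.

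Other lists were also split by group. The type I interferon response had a median of -0.311 within cases, where 16 of 20 members lay below zero, and of 0.334 within controls, where 16 of 20 lay above. The antiviral genes ISG15 (-1.71 in cases, unadjusted P = 0.0193) and IFI44L (0.75 in controls, unadjusted P = 0.0349) were the 2 members past an unadjusted P of 0.05 in either group, 1 of 20 in each against 5.78% and 4.9% of all genes, and 0 of 20 reached it for the difference (background 7.97%). ISG15 stood at 99.8 CPM in case 01, against 3.94 to 24.5 CPM in the other cases, and its value was -0.22 without that dog. Without control 07 the IFI44L value was 0.26. T cell markers had 9 of 11 below zero within cases and 11 of 11 above zero within controls, with medians of -0.101 and 0.228. Over all genes the medians were -0.00053 within cases and -0.023 within controls. The difference between groups was not tested for lists as a whole.

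**Figure D5:**
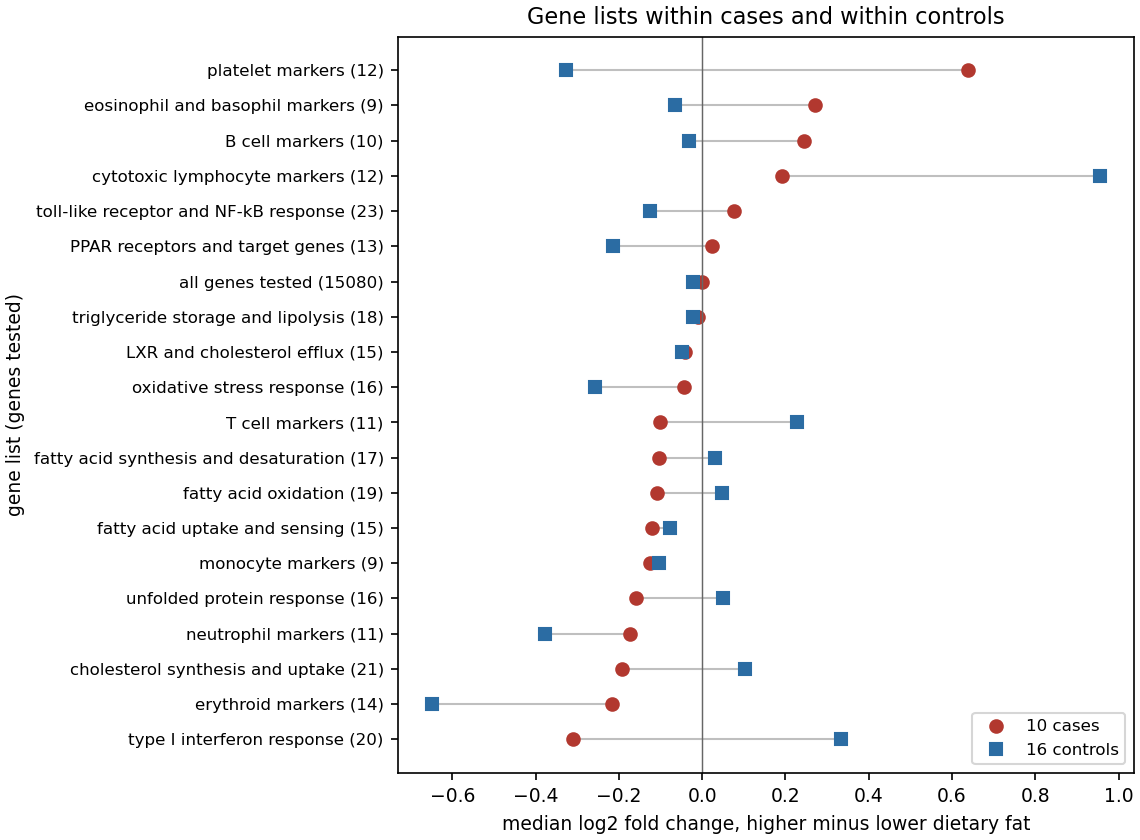
Each row is a gene list with its number of genes tested, with its median log2 fold change, higher minus lower dietary fat, within the 10 cases (red circles) and within the 16 controls (blue squares). Platelet markers lie at 0.64 and -0.328, cytotoxic lymphocyte markers at 0.19 and 0.96, and all genes tested close to zero in both.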

How the data were processed

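Whole blood of the dogs was sequenced as strand-specific total RNA after removal of ribosomal RNA. The authors trimmed reads with Trimmomatic, aligned them with HISAT2 to the boxer genome (canFam6) and deposited raw counts of read pairs per gene, counted where both mates mapped. The counting program is not given in the sources used here. The table of counts holds 32704 genes, of which 18601 carry a symbol.

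Genes were kept by edgeR's filterByExpr over the 4 combinations of group and fat side, scaled by TMM and tested with edgeR 4.0.16 (quasi-likelihood, R 4.3.3) in a model of group and fat side, and within groups and for their interaction in a model of the 4 combinations. P was adjusted by Benjamini-Hochberg over all 15080 genes with a threshold of 0.05. Standard errors and 95% intervals come from the same fit. P-values measure the spread between dogs, 1 library each. DESeq2 1.42.0, limma-voom (limma 3.58.1), other covariates (sex, age, body condition, triglyceride rank), filters, scalings and libraries were alternatives, and some of these were chosen after seeing the data. The study itself fitted DESeq2 with the preparation batch, which the labels do not give per library. Log2 CPM used a prior count of 2. The code was tested on simulated data.

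The genes named were the 10 with a symbol and the smallest P on each side, a set of lipid genes whatever their values, up to 3 members of each list with the smallest P, and up to 5 genes each within cases, within controls and for the interaction. Members, lists and rule were chosen with earlier results of these data known. Some genes that this rule names are not reported here. No sequences or coordinates are given.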

Additional observations from a re-analysis of the deposited data

Results flagged for a closer look

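Single dogs lay far from the rest of their group and fat side in 8 of 88 checks over 22 measures, by Dixon's criterion. Chance alone meets it in about 1 in 20 for a measure chosen without regard to its values. Several genes among these measures were named for a small P in the same dogs, and some measures overlap. The 2 rates therefore cannot be compared. All values of genes are log2 CPM. Among lower-fat cases, case 01 stood at 4.43 for ALKBH7 (nearest dog 2.53), at 8.35 for KLF1 (nearest 5.11) and at 12.6 for UCP2 (nearest 9.22). Among lower-fat controls, control 03 stood at 11.9 for UCP2 (nearest 9.81) and at 2.77 for the erythroid marker score (nearest 0.567). Control 09 stood at 1.07 for the neutrophil marker score (nearest 0.262). Among the higher-fat dogs, control 08 stood at 4.21 for HYDIN (nearest 1.78) and case 07 was low for POC1A at 2.21 (nearest 2.56).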

How the results depend on the processing

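The comparison of the sides called 0 genes under all 20 alternatives and without any 1 of the 26 dogs, the smallest adjusted P being 0.155 with dietary fat as a number. At an unadjusted P under 0.05 it gave 2051 genes without a filter on low counts, 156 in the 10 dogs with high small RNA levels alone, and 369 (without control 07) to 649 (without control 15) with 1 dog left out. Within cases, 1 gene was called by DESeq2 (ALKBH7, -1.42) and 1 with sex as a covariate (POC1A, -1.04), and for the interaction 1 by DESeq2 (a row without a symbol) and 1 with sex (POC1A, -1.23). With 1 dog left out these comparisons called 0 genes. Within controls the genes at an unadjusted P under 0.05 numbered 1147 without control 17. With the replicate block 0 genes were called and 450 had an unadjusted P under 0.05. In that fit a dog whose number no dog of the other group shares adds nothing to the fat estimate, which thus rests on fewer dogs. The numbers do not pair the dogs, since same-numbered cases and controls are different animals whose deviations correlated from -0.311 to 0.351 over 9 pairs, over 0.1 in 3, and 1 of 9 cases correlated best with its own number.

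Of 1393 values for 82 pairs of gene and comparison, 1357 kept their direction and side of the threshold and 33, of 13 genes, changed sign, none of them past the threshold before or after. Under the replicate block CPT1A was -0.27, ACSL1 0.000479, SCD 0.17, FADS2 0.14 and LCN2 0.12. With fat as a number the slopes, per g per 100 kcal, were -0.010 for CPT1A, 0.062 for ACSL1, 0.070 for FADS2 and -0.040 for ABCG1. Without the dogs next to the threshold ACSL1 was 0.37, FADS2 0.39, UCP2 0.13 and GPX1 0.45, and without case 01 and control 03 ACSL1 was 0.32, FADS2 0.17, UCP2 0.19, KLF1 0.086, SLC4A1 0.063 and GPX1 0.37. Case 01 and control 03 are themselves among the dogs next to the threshold, so these settings are not separate checks. Without the group covariate PDK4 was -0.19, FADS2 0.061 and ABCG1 -0.013. In the dogs with high small RNA levels FADS2 was 0.19, ABCA1 -0.38, ABCG1 -0.060 and ATF3 0.061, and in those with low levels SCD was 0.083. FADS2 was 0.031 by limma-voom, and ABCA1 -0.020 with the platelet score as a covariate. With 1 dog left out CPT1A was -0.012 (control 18), SCD 0.0057 (case 11), FADS2 0.041 (case 01) and ABCA1 -0.022 (control 09), and at the other end of these ranges were CPT1A 0.115, SCD -0.13, FADS2 -0.203 and ABCA1 0.148. Beyond what the left-out dogs themselves show, the cause was not tested. Precision was lowest for faint genes: under 1 CPM, 31.5% of intervals left out a 2-fold difference.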
